A study of Homo sapiens with 12 samples.

Results

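OVCAR-3 is an established cell line from a human ovarian adenocarcinoma, labelled as epithelial and of wild-type genotype. The gene expression described here is that of the 3 OVCAR-3 libraries treated with the vehicle DMSO for 6 h, out of 12 libraries of the series. They were chosen by their treatment label, and genes were ranked by their mean over the 3 libraries. The study treated the same line for 6 h with DMSO, with FC-A (Fusicoccin A, a small molecule that stabilizes complexes of 14-3-3 proteins with their partners), with interferon alpha (IFNα), or with both agents, in 3 libraries each. The other groups enter only through the range of depths and a short closing note, and no test between groups was run. The labels state no dose, and OVCAR-3 is a single line, so the 3 libraries carry no spread between tumours.

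High-grade serous carcinoma cells usually keep the transcription factor PAX8 of the Müllerian epithelium and carry surface antigens such as EPCAM and MUC16, the CA125 antigen. Type I interferon acts through the receptor pair IFNAR1 and IFNAR2, the kinases JAK1 and TYK2 and a complex that contains STAT2 and IRF9, which binds response elements before antiviral genes. Cell death by the extrinsic route runs from death receptors through FADD and caspase-8, and the intrinsic route is set by the balance of BCL2 family proteins. The 14-3-3 proteins are dimeric adaptors that bind phosphorylated partners.

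The 3 vehicle libraries held 35917611, 33941206 and 33804968 reads over the listed genes, within the range of 31181742 to 39529357 over all 12 libraries. They differed by more than sampling noise, since the chi-square statistic of their reads was 2.39 per gene between replicates 1 and 2, 5.22 between 1 and 3 and 5.38 between 2 and 3, where sampling noise alone gives about 1. By this measure replicate 3 stood further from the other vehicle libraries than these did from each other. Without it, the levels of the 21 genes followed through every alternative moved by at most 6.69%. Nothing in the sources used here says that the libraries came from separate cultures, so the SD given with each mean measures the spread between these libraries, which may be technical.

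Of 28035 genes listed, 15981 reached a mean of 10 normalized reads in the vehicle libraries, taken here as the detection limit, and 2248 had no read in any of the 3. The genes above the limit made up 57% of all genes listed and 81.3% of the 16547 matched to a protein-coding gene. A normalized read is a read divided by a size factor of its library, and the median over all listed genes was 27.8 normalized reads. The 100 genes with most reads took 21.2% ± 0.108 (SD, n = 3) of all normalized reads, and the 1000 with most reads took 52.5% ± 0.155. Protein-coding genes took 98.3% of the reads.

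The gene with the most reads was the translation elongation factor EEF1A1, with 222959, 222505 and 235925 normalized reads in DMSO replicates 1, 2 and 3 (mean 227129.5 ± 7621, SD, n = 3, as for all means below). EEF1A1 was highest in replicate 3. The 5 genes that followed by reads were MT-CO1, a mitochondrially encoded oxidase subunit, RPS2 of the small ribosomal subunit, the glycolytic enzyme ENO1, the ferritin heavy chain FTH1 and the membrane-binding protein ANXA2. The simple-epithelium keratin KRT8 ranked 8, fibronectin FN1 ranked 14, KRT19 ranked 19 and KRT7 ranked 26. By gene class, the 83 listed cytosolic ribosomal protein genes, 81 of them above the limit, took 7.63% ± 0.145 of the reads. The genes of the mitochondrial genome took 3.24%, 3.36% and 3.55%, with the highest share in replicate 3. Keratin genes took 1.64% ± 0.0154 and 17 glycolytic enzyme genes 2.22% ± 0.0755.

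**Figure D1:**
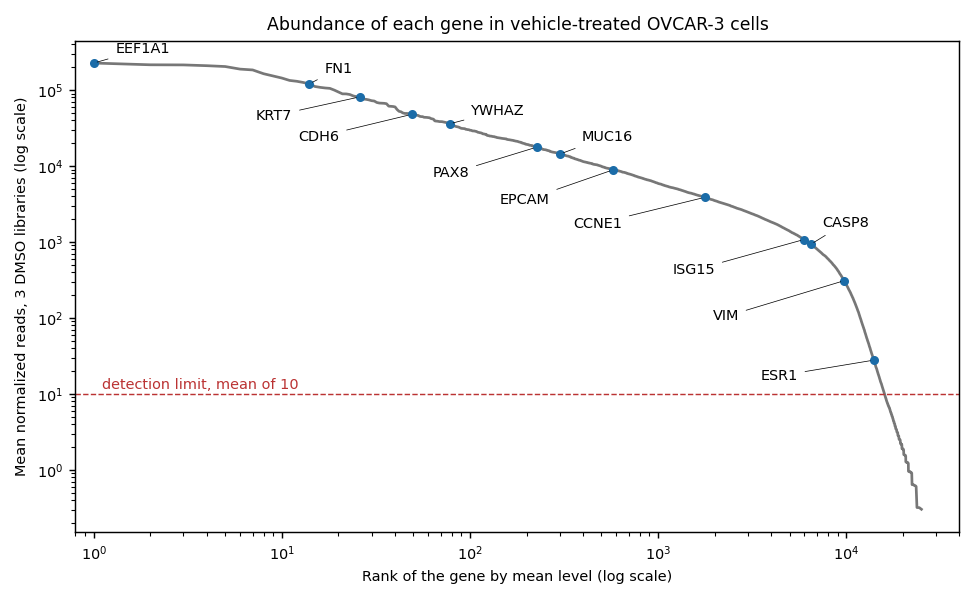
Mean normalized reads of each gene over the 3 vehicle libraries (y axis, log scale) against its rank (x axis, log scale), with named genes as points and the detection limit of 10 as a dashed line. PAX8 lies at rank 226, MUC16 at rank 302 and EPCAM at rank 577, while ESR1 lies just above the limit at rank 14018.

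A longer transcript gives more reads per molecule, so levels of different genes are compared here as normalized reads per kilobase (kb) of coding sequence, and an order on that scale that turned per kb of transcript is marked as such. Where a gene is said to have the most or fewest reads, that is a rank by reads and not by level. On the per-kb scale of coding sequence FTH1 led with 372252 ± 11853, followed by RPS16 with 286622 ± 7924 and RPS2 with 244146 ± 1259.8. Per kb of transcript the same 3 genes led in the reverse order, with 217873 for RPS2, 203266 for RPS16 and 198994 for FTH1. Of the 100 genes with most reads, 57 were also among the 100 highest per kb of coding sequence. MUC16 shows how much the scale matters: its normalized reads exceeded those of EPCAM, but its very long coding sequence brought it to 332 ± 43.4 per kb, against 8691 ± 63.1 per kb for EPCAM.

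PAX8, EPCAM and MUC16, the markers that define the labelled cell type, were all far above the limit. PAX8 had 18030.0, 17489 and 17608 normalized reads in replicates 1, 2 and 3 (mean 17709 ± 284). EPCAM, an epithelial adhesion molecule, had 8990.1, 8866 and 8896 (mean 8917 ± 64.7). MUC16 had 14352, 12603 and 16377 (mean 14444 ± 1889). PAX8 and EPCAM lay close to their means in every library, whereas MUC16 was lowest in replicate 2 and highest in replicate 3, with a coefficient of variation of 13.1%.

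Members are described by lists of genes with a shared role, and some members are named for their role or their pattern after their values were seen. Of 660 symbols on the lists 628 matched a listed gene, and counts of list members are out of those matched. Of these 628, 87.4% were above the limit, beside 81.3% of the 16547 listed protein-coding genes. Here and below, all protein-coding genes means those listed, so genes that matched none are left out of both shares. Of 30 listed genes on the ovarian epithelial lineage list, 29 were above the limit and 20 averaged 1000 normalized reads or more. The list's median was 2959 normalized reads, beside 532 for all protein-coding genes. Among the transcription factors, PAX8 was highest per kb of coding sequence with 13118 ± 211, followed by EMX2 with 3620.4 ± 128, SOX17 with 1385 ± 90.2, WT1 with 474 ± 28.5 and MECOM with 91.03 ± 7.99. The steroid receptors sat at the other end of this list. ESR1, the estrogen receptor alpha gene, had 29.02, 27.7 and 26.7 normalized reads in replicates 1, 2 and 3. The progesterone receptor gene PGR had no read in any of the 3 libraries, where 3 reads would correspond to 2.72 to 2.87 normalized reads.

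The surface and secreted antigens of the same list were all above the limit. CDH6, a cadherin of kidney and ovarian carcinoma, had 47486, 48289 and 47899.7 normalized reads in replicates 1, 2 and 3 and ranked 49 among all genes. The phosphate transporter SLC34A2, the antigen of NaPi2b-directed antibodies, had 27894, 27320.4 and 28175. The secreted protease KLK5 had 22787, 22128 and 24483. SPON1, a secreted matrix protein, had 15019 ± 851. The coefficients of variation of CDH6, SLC34A2 and KLK5 were 0.838%, 1.57% and 5.25%, beside a median of 2.64% for genes with means of at least 10000 normalized reads. Mesothelin (MSLN), a MUC16 ligand, had a mean of 3728 ± 146 normalized reads, WFDC2, which encodes HE4, 1754 ± 102, and the claudins CLDN3 and CLDN4 8282 ± 364 and 7632 ± 418. FOLR1, the folate receptor alpha gene, had 139, 135 and 129.7 in replicates 1, 2 and 3, the fewest reads of the 22 antigens, though PROM1 was lower per kb of coding sequence, at 138 ± 17.4 against 174 ± 5.92.

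Keratins of simple epithelium were among the genes with the most reads. KRT8 had 158491, 163077 and 171257 normalized reads in replicates 1, 2 and 3. KRT18, its partner in filaments, had 47686, 48742 and 51442. KRT7 had 82808, 84526 and 77126, so that KRT8 and KRT18 were highest in replicate 3 and KRT7 was lowest there. Per kb of coding sequence the order was KRT8 with 107159 ± 4218, KRT19 with 83382 ± 773, KRT7 with 57915 ± 2753, KRT18 with 38209 ± 1502 and KRT81, a hair keratin, with 33022 ± 1552. Each of these was separated from the next by more than the sum of their SDs. KRT5, a basal keratin, had 34521 ± 1153 normalized reads, but its usual partner KRT14 had 58.6 ± 9.14, and the intestinal keratin KRT20 lay below the limit at 0.94 ± 0.957. All 18 adhesion and epithelial identity genes were above the limit, among them the desmosomal proteins DSP and JUP with 30449.7 ± 1746 and 16101 ± 405, the epithelial factor ELF3 with 6718 ± 287, E-cadherin (CDH1) with 7754 ± 159.7 and the epithelial splicing regulators ESRP1 and ESRP2 with 5196 ± 269 and 3764 ± 51.97.

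Among 8 listed mesenchymal genes, 5 were above the limit, and only FN1 exceeded 1000 normalized reads. FN1, a matrix glycoprotein, had 135519.5, 114227 and 112527 normalized reads, highest in replicate 1. Vimentin (VIM), the filament protein of mesenchymal cells, had 327, 307 and 295. Per kb of coding sequence VIM was at 221 ± 11.5, against 107159 ± 4218 for KRT8. N-cadherin (CDH2) had 245 ± 11 per kb of coding sequence against 2862 ± 58.96 for E-cadherin. The listed repressors of E-cadherin had fewer reads than the protein-coding median of 532. SNAI1 had 292 ± 26.8 normalized reads, TWIST1 35.3 ± 6.18 and ZEB2 20.6 ± 1.397. ZEB1 and TWIST2 lay below the limit at 1.88 ± 0.0557 and 2.80 ± 0.863. Per kb of coding sequence SNAI1, at 369, was above VIM and below E-cadherin. SNAI2 matched no listed gene.

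Markers of other cell types that a culture could hold were mostly low but not all absent. Of 10 fibroblast markers 4 were above the limit, with a summed level of 1259.5 to 1393 normalized reads per library, while the defining matrix genes DCN and LUM had no read in any library. COL1A1 had 815 ± 40.9 and the protease FAP 206 ± 13.4. The leukocyte markers CD3D, CD3E, MS4A1 and NKG7 matched no listed gene. Of the 8 leukocyte markers listed 4 were above the limit, with a sum of 305 to 344 per library. CD14 made up most of that sum with 199.8 ± 15.8. The pan-leukocyte gene PTPRC had 15.4, 9.57 and 5.72 in replicates 1, 2 and 3, highest in replicate 1, and ITGAM was at 0 in all 3.

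Of 6 listed endothelial markers 4 were above the limit, with sums of 681 to 746, led by the factor ERG with 382 ± 14.7. CLDN5 and TEK were below it, and PECAM1 matched no listed gene. Of 6 mesothelial markers 4 matched a listed gene, and ITLN1 and PRG4 did not. The 4 were all above the limit, with sums of 743 to 865, most of it from UPK3B with 645 ± 50.9. In bulk RNA, few cells of another type and little RNA per cell of the line itself cannot be told apart, and the part of other cells in these levels was not tested.

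Of 19 listed markers of other ovarian tumour types and of tubal cells, 10 were above the limit. MUC2 and TFF1 of mucinous tumours and NANOG of germ cells had no read in any library. CAPS, a marker of ciliated tubal cells, had 1756, 1598 and 1789.7 normalized reads in replicates 1, 2 and 3. FOXJ1, the factor of ciliated cells, had 259, 301 and 351, highest in replicate 3. The granulosa cell genes AMH and FOXL2 had 331 ± 5.48 and 316 ± 47.8, but their companions NR5A1 and AMHR2 lay below the limit at 0.956 ± 0.957 and 0.922 ± 0.907. Of the other ciliated markers RSPH1 and TPPP3 were above the limit at 92.02 ± 13.96 and 21.6 ± 6.87, and PIFO was below it at 7.78 ± 2.12.

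**Figure D2:**
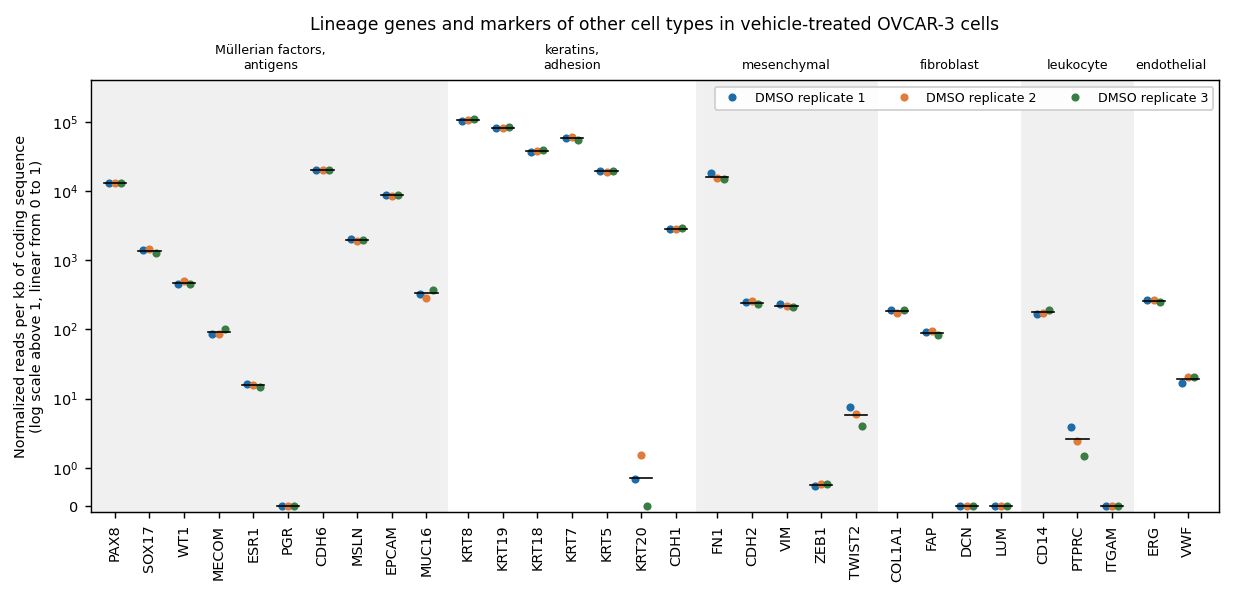
Normalized reads per kb of coding sequence (y axis, log scale above 1 and linear from 0 to 1) of lineage genes and of markers of other cell types. Each coloured point is 1 of the 3 vehicle libraries and each line their mean; the keratins reach 107159 for KRT8, while PGR, DCN, LUM and ITGAM lie at 0 in every library.

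Of 57 growth factor receptors 52 were above the limit, a share of 91.2% beside 81.3% of all protein-coding genes. EPHA2, an ephrin receptor kinase, had 14748, 15197 and 13141 normalized reads in replicates 1, 2 and 3, lowest in replicate 3. DDR1, a collagen receptor kinase, had 10907, 10707 and 10823. Both were above the EGF receptor family per kb of coding sequence, at 4905 ± 369 and 3922 ± 36.5, and their own order turned per kb of transcript, at 3623 and 3752. Within the family ERBB2 was at 2058 ± 90.5 per kb of coding sequence, ERBB3 at 1255 ± 72.2, EGFR at 1133 ± 55.8 and ERBB4 at 51.7 ± 0.516, and ERBB3 and EGFR did not differ beyond their spread on that scale. The hepatocyte growth factor receptor MET had a mean of 2707 ± 112 normalized reads. FLT1, PDGFRA, PDGFRB and RET, receptor kinases of endothelial, stromal or neural cells, lay below the limit, as did NOTCH4. Other such kinases were above the limit, with 123 ± 10.7 normalized reads for NTRK2, 41.9 ± 5.97 for KDR and 13.1 ± 2.46 for DDR2. All 10 TGFβ and BMP receptors were above it, with most reads for TGFBR2 at 5155 ± 101.5, and among Wnt and Notch receptors NOTCH2 had 14237 ± 896, NOTCH3 9532 ± 246 and LGR4 5459 ± 86.7.

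RARG and RXRA were the highest of the 24 nuclear receptors under both lengths. RARG, a retinoic acid receptor, had 2958 ± 65.9 per kb of coding sequence and RXRA, the shared partner of many nuclear receptors, 2692 ± 73.1, with the order of the pair turned per kb of transcript, at 1362 and 2021. The vitamin D receptor VDR had 1202 ± 48.98 per kb of coding sequence. The steroid receptors were lower on the same scale: the glucocorticoid receptor NR3C1 had 322 ± 4.92 and ESR1 15.6 ± 0.653. In all, 21 of 24 nuclear receptors were above the limit, with PGR, ESR2 and RXRG below. Among cytokine receptors 19 of 24 were above the limit, a share of 79.2% beside 81.3% of all protein-coding genes. Most reads were those of IL1R1 at 3354 ± 90.7 normalized reads, IL13RA1 with 2425 ± 64.6 and the shared subunit IL6ST with 2262 ± 19.9. The lymphoid and myeloid chains IL2RB, IL2RG, CCR7, CXCR3 and CSF2RA were below the limit. Some other leukocyte receptors were above it, with 160 ± 33.3 normalized reads for IL7R, 125 ± 7.67 for IL18R1 and 23.1 ± 6.94 for CXCR4.

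All 27 genes of the interferon receptors and the JAK-STAT pathway were above the limit. IFNAR1 had 2560.4, 2596 and 2589 normalized reads in replicates 1, 2 and 3. IFNAR2 had 736, 698 and 709, and both varied little between libraries. Per kb of coding sequence IFNAR1 was at 1545 ± 11.2 and IFNAR2 at 463 ± 12.7. Both chains of the receptor for IFNα thus had RNA in every library, with IFNAR1 the higher under both lengths. Those of the receptor for interferon gamma had 1482 ± 48.4 normalized reads for IFNGR1 and 1265 ± 60.4 for IFNGR2, and those for interferon lambda 287 ± 9.49 for IFNLR1 and 729 ± 44.7 for IL10RB. Of the kinases, JAK1 had 1578 ± 34.1 and TYK2 889 ± 10.2 per kb of coding sequence, while JAK2 and JAK3 had 95.6 ± 6.73 and 27.2 ± 6.13.

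STAT2 and IRF9, subunits of the transcription complex, were unequal in reads. The treatment of reads from overlapping genes was not stated, so IRF9 reads may be missing or mixed with those of other genes. STAT2 had 2289, 2194 and 2517 normalized reads in replicates 1, 2 and 3. IRF9, the subunit that recognizes the response element, had 27.2, 31.6 and 29.6. Per kb of coding sequence this put STAT2 at 914 ± 65.1 and IRF9 at 24.98 ± 1.85, and IRF9 was the lower of the pair in every library. STAT3, the factor of IL6 family receptors, had 1918 ± 93.5. STAT4, a lymphoid STAT, lay near the limit at 10.6 ± 1.53 normalized reads. Among negative regulators SOCS3 had 2982 ± 49.5 and PTPN1 3943 ± 143, SOCS1 had 77.4 ± 15.9, and the ISG15 protease and receptor inhibitor USP18 had 473 ± 43.5.

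Interferon genes themselves had few reads or none. IFNB1, IFNW1, IFNL2 and IFNL3 had no read in any of the 3 libraries, IFNL1 had a mean of 1.83 ± 2.39 normalized reads, and only the epithelial interferon IFNE passed the limit, at 17.2, 15.3 and 8.58. The other ligand genes of the list, among them IFNA1, IFNA2 and IFNG, matched no listed gene and were not analysed here. Of the interferon regulatory factors 7 of 8 were above the limit. IRF3, which is activated by sensor kinases, had 2229 ± 45.8, IRF1 1288 ± 8.65, the myeloid factor IRF8 849.9 ± 52.4 and IRF7 355 ± 6.43, while IRF4 was at 0.621 ± 0.539.

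Sensors of RNA were above the limit and sensors of DNA mostly were not. DDX58, which encodes RIG-I, had 1150.1, 1080.2 and 1149 normalized reads in replicates 1, 2 and 3. IFIH1, which encodes MDA5, had 396, 387 and 382. Their adaptor MAVS had 1143, 1254 and 1313, lowest in replicate 1. All 7 RNA sensor genes were above the limit, with TRIM25, the ligase that activates RIG-I, at 6316 ± 80.2, ZC3HAV1, which binds viral RNA, at 2482 ± 69.1 and EIF2AK2, the RNA-activated kinase PKR, at 2462 ± 27.3. Of 6 DNA sensor genes 2 were above it: TMEM173, which encodes the adaptor STING, had 721, 649.6 and 761 in replicates 1, 2 and 3, and the nuclease TREX1 had 345 ± 15.3. The DNA-binding sensors themselves were near 0. MB21D1, which encodes cGAS, had 0.907, 1.91 and 0, and IFI16 had 1.81, 0.957 and 2.86. ZBP1, which senses nucleic acids in the Z form, had 7.26, 6.70 and 7.63, and the inflammasome sensor AIM2 had no read. Among Toll-like receptors TLR6 had the most reads with 638 ± 25.01, TLR3, which binds double-stranded RNA, had 103 ± 7.72, and TLR9 had no read. The adaptors and kinases below the sensors were all 8 above the limit, among them TBK1 with 976 ± 28.2 and MYD88 with 837 ± 30.4.

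Nearly every antiviral effector had reads above the limit without added interferon, over a very wide range. Of 56 genes, 54 were above the limit, with a median of 398 normalized reads, and XAF1 and APOBEC3G were below it. The share above the limit was 96.4%, beside 81.3% of all protein-coding genes. LY6E, a membrane protein that blocks viral fusion, led per kb of coding sequence with 19070.5 ± 523, followed by IFITM3, which traps viruses in endosomes, with 10140.5 ± 448. The RNA editor ADAR had 3778 ± 116, ISG15, the ubiquitin-like modifier, 2177 ± 195, and the dynamin-like GTPase MX1 347 ± 34. The order of these 5 held per kb of transcript, and each was separated from the next of the 5 by more than the sum of their SDs. DTX3L, a ubiquitin ligase that acts with PARP9, and SLFN5 of the Schlafen family were among the 5 members with most reads, at 4106 ± 67.9 and 3771 ± 363.

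Several families held both low and high members. IFITM1 had 38.1, 43.1 and 61.98 normalized reads in replicates 1, 2 and 3, beside 3937, 3948 and 4252 for IFITM3. OAS2, a synthetase that activates RNase L, had 25.4, 16.3 and 33.4, beside 785, 805 and 861 for OAS3. The deaminase APOBEC3G had 0.907, 0 and 1.91, beside 949, 932 and 1053 for APOBEC3C. In each of these pairs every library of the low member was below every library of the high one, and the order held per kb of coding sequence and of transcript. XAF1, an XIAP-binding protein, had 1.81, 0.957 and 1.91. The IFIT genes were all above the limit with 660.4 for IFIT5, 460.4 for IFIT3, 328 for IFIT2 and 257 for IFIT1 as means, and reads that fit more than 1 of these related genes, which could not be counted here, leave their split uncertain.

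The upstream sequences of 4 antiviral genes are shown for the letters of the response element that the complex of STAT2 and IRF9 is known to bind. They were chosen, after their values were seen, to include high members (ISG15, IFITM3), a low member of the IFITM family and XAF1, which was near 0. Each is the 250 bases before the RefSeq start of the gene, GRCh38.p14, 5′ to 3′ on the strand of the gene, with matches to the motif GAAANNGAAA in capitals. ISG15 lies on the plus strand at chr1:1013247-1013496, IFITM3 on the minus strand at chr11:320861-321110, IFITM1 on the plus strand at chr11:313790-314039 and XAF1 on the plus strand at chr17:6755796-6756045.
ISG15: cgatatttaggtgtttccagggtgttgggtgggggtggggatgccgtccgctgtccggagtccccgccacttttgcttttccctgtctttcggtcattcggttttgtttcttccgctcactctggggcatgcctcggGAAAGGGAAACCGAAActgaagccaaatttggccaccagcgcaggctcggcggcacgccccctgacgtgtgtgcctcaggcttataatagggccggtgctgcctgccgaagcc
IFITM3: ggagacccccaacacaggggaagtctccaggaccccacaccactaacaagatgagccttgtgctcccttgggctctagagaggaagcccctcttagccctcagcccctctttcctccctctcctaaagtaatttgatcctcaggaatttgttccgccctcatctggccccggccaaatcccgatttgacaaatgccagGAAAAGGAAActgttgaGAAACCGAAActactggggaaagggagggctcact
IFITM1: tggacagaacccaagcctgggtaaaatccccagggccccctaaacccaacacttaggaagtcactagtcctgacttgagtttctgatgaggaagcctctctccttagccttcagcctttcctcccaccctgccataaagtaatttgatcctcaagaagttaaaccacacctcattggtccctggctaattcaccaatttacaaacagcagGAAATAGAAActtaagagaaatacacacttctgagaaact
XAF1: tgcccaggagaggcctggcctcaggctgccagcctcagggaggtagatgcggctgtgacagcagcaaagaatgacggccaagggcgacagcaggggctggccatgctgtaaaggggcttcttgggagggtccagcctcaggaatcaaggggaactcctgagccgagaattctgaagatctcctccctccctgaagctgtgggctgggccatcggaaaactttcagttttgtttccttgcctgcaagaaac
ISG15 held 2 overlapping matches, the first beginning 113 bases before the start, IFITM3 held 2, IFITM1 held 1 and XAF1 held none. The motif was searched on both strands. It was found in 18 of 39 antiviral promoters for which RefSeq sequence was at hand, a share of 46.2%, and in 3.07% of all 27305 promoters of the same length. The 18 antiviral genes with a match had a median of 377 normalized reads (range 47.7 to 4046), and the 21 without had 458 (1.56 to 13896), so that the ranges overlapped. A match describes the letters and not a bound site.

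Of 22 genes of MHC class I presentation 21 were above the limit, a share of 95.5% beside 81.3% of all protein-coding genes. B2M, the light chain, had 9877, 9975 and 9947 normalized reads in replicates 1, 2 and 3. HLA-C had 9478, 9534 and 9219, and both varied little between libraries. HLA-B had a mean of 2495 ± 45.99, and reads shared between similar and polymorphic class I genes make their split uncertain. HLA-G, a class I gene of trophoblast, was below the limit at 1.22 ± 1.38. The peptide transporter TAP1 had 397 ± 25.4 per kb of coding sequence and the immunoproteasome subunits PSMB8 and PSMB9 1322 ± 57.6 and 191 ± 37.5. The chaperones CALR and PDIA3, which also serve other proteins of the endoplasmic reticulum, were higher on that scale, at 17739.8 ± 502 and 16591 ± 142.

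**Figure D3:**
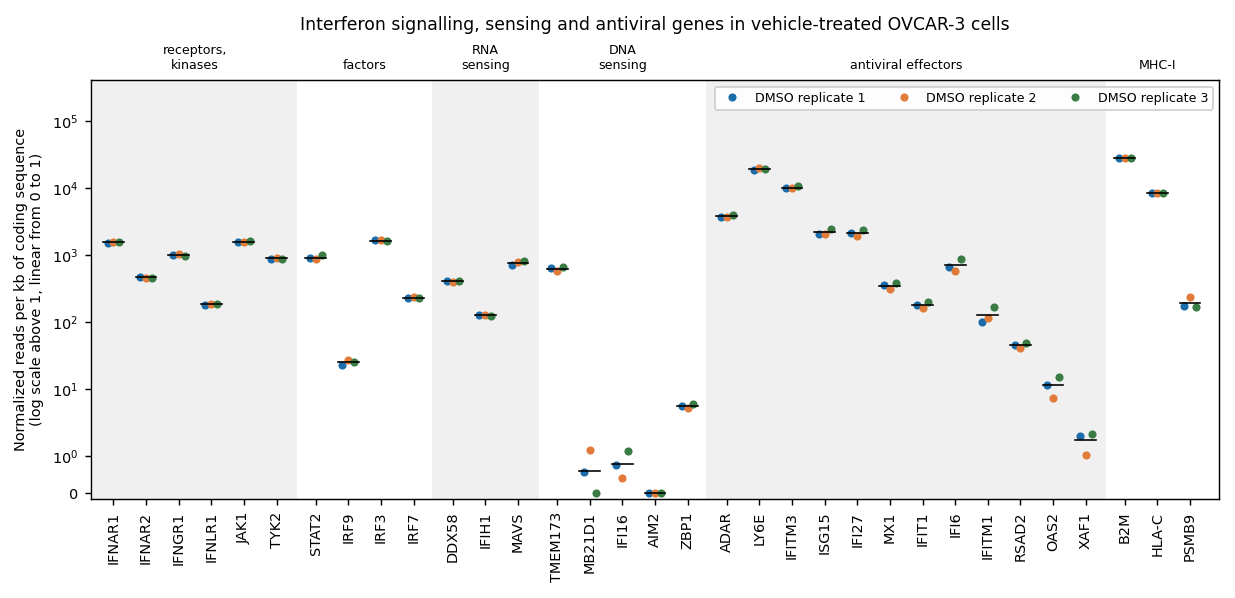
Normalized reads per kb of coding sequence (y axis, log scale above 1 and linear from 0 to 1) of genes of interferon signalling, nucleic acid sensing, antiviral defence and MHC class I. Points are the 3 vehicle libraries and lines their means; the DNA sensors MB21D1, IFI16 and AIM2 lie near or at 0, and antiviral effectors run from 19070.5 for LY6E to 1.73 for XAF1.

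The antiviral effectors differed between the vehicle libraries in 1 direction. Replicate 3 was the highest of the 3 libraries for 44 of the 54 effectors above the limit, or 81.5%, whereas it was the highest for 35.4% of all 15981 genes above the limit. It was the lowest for 1 of the 54. Replicate 2 was the lowest for 32, or 59.3%, beside 31.4% of all genes above the limit. The size was small. The median ratio of replicate 3 to the mean of the other libraries was 1.09 for the effectors and 0.997 for all genes. ISG15 had 1017, 1028 and 1189 normalized reads in replicates 1, 2 and 3. IFI6, an interferon-induced survival protein, had 275, 239 and 364. MX1 had 706, 616 and 748. These 3 genes, named after their values were seen except for ISG15, were each highest in replicate 3.

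Other lists moved with replicate 3 as well. It was the lowest library for 22 of 30 proliferation genes, with a median ratio of 0.946 to the others, and for all 5 mesenchymal genes above the limit, whereas it was the lowest for 37.8% of all genes above the limit. It was the highest for 15 of 27 genes of the interferon receptors and the JAK-STAT pathway, with a median ratio of 1.04. Such shifts were not limited to replicate 3. Replicate 2 was the lowest library for 14 of 21 nuclear receptors and 17 of 29 ovarian epithelial lineage genes above the limit. Replicate 3 also had the highest share of mitochondrially encoded reads, given above. With 1 library on 1 side no test was made, and the part of library quality, of the culture or of handling in these differences was not tested.

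The list of death receptors and adaptors holds 12 receptors, which include other members of the TNF receptor family. All 12 were above the limit, while 3 of 7 ligands were not. TNFRSF10B, which encodes the TRAIL receptor DR5, had 3438, 3552 and 3427 normalized reads in replicates 1, 2 and 3. TNFRSF10A, which encodes DR4, had 829, 862 and 750.4, lowest in replicate 3. Per kb of coding sequence these were 2631 ± 52.6 and 579.6 ± 40.8, with FAS at 467 ± 32.6. TNFRSF12A, the receptor of TWEAK, and the lymphotoxin receptor LTBR were higher than DR5 on that scale, at 6323 ± 580.2 and 3254 ± 162. The TRAIL decoy receptor TNFRSF10D had 422 ± 40.9 normalized reads, and TNFRSF10C, another decoy, lay just under the limit at 9.71 ± 0.72.

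Among the ligands TNFSF10, which encodes TRAIL, had 521, 482 and 573 normalized reads in replicates 1, 2 and 3 and led the ligands per kb of coding sequence with 623 ± 54.1. TNF had 59.9, 43.1 and 41.95. The ligand of FAS, FASLG, had 0, 0 and 0.953, and the lymphotoxin gene LTA had 2.52 ± 1.14. The adaptors were all above the limit, with 1134 ± 55.5 for FADD, 1426 ± 111 for CFLAR, the caspase-8 inhibitor cFLIP, and 1073 ± 122 for TRAF2.

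The initiator caspase gene CASP8 had 921, 945 and 927 normalized reads in replicates 1, 2 and 3, with a coefficient of variation of 1.38%. CASP10, its close relative, had 161, 166 and 178. CASP2, which responds to DNA damage, had the most reads of the initiators with 1830.3 ± 16.6. The executioner CASP6 had a mean of 711 ± 32.2, and CASP9 of the apoptosome had 761 ± 99.6 with APAF1 at 543 ± 16.2. Caspase inhibitors spanned a wide range per kb of coding sequence: BIRC5 (survivin, which also acts in mitosis) had 9011 ± 335, XIAP 1212 ± 4.88, BIRC2 307 ± 9.95 and BIRC3 25.6 ± 0.308. In all, 23 of 25 listed genes of the caspases and the apoptosome were above the limit. CASP14, a caspase of skin, and the inhibitor BIRC7 were below it.

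Among the anti-apoptotic BCL2 proteins, MCL1 and BCL2L1 were far above BCL2. MCL1 had 11085, 11433 and 11288 normalized reads in replicates 1, 2 and 3. BCL2L1, which encodes BCL-XL, had 5193, 5210.4 and 4670.1, lowest in replicate 3. BCL2 had 48.98, 58.4 and 42.9. The order per kb of coding sequence was MCL1 with 10732 ± 166, BCL2L1 with 7188 ± 439, BCL2L2 with 1551 ± 23.9 and BCL2 with 69.8 ± 10.9, each separated from the next by more than the sum of their SDs. BCL2A1 lay below the limit at 0.62 ± 0.538.

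The effectors BAX, BAK1 and BOK had 1223 ± 54.4, 1294 ± 61.9 and 799 ± 14.1 normalized reads. All 10 BH3-only genes were above the limit. BID, which links caspase-8 to mitochondria, had 3908, 3851 and 3858 in replicates 1, 2 and 3. BMF, linked to loss of anchorage, had 2911, 2578 and 2928. BCL2L11, which encodes BIM, had 2145, 2178 and 2452, highest in replicate 3. The BH3-only genes BBC3 and PMAIP1, which encode PUMA and NOXA, had 193 ± 14.6 and 494 ± 82.9 per kb of coding sequence, against 5356 ± 43.3 for BID.

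For necroptosis and pyroptosis, RIPK1 had 1761, 1709.7 and 1829 normalized reads in replicates 1, 2 and 3. RIPK2, the kinase of the NOD receptors, had 834, 824 and 736, lowest in replicate 3. MLKL, the pore former of necroptosis, had 314, 307 and 320.4. RIPK3 matched no listed gene and was not analysed here. GSDMD, the pore former of pyroptosis, had 2266 ± 37.9, while the inflammatory caspase CASP1 had 146 ± 12.5 and the inflammasome sensor NLRP3 0.319 ± 0.552. The epithelial kinase RIPK4 was the highest of the 3 listed RIPK genes per kb of coding sequence, with 3541 ± 121 against 878 ± 29.7 for RIPK1. Ferritin FTH1 and the ferroptosis inhibitor GPX4 were abundant at 204366 ± 6507 and 11945 ± 120.3, whereas the cystine transporter gene SLC7A11 had 88.2 ± 11.1.

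**Figure D4:**
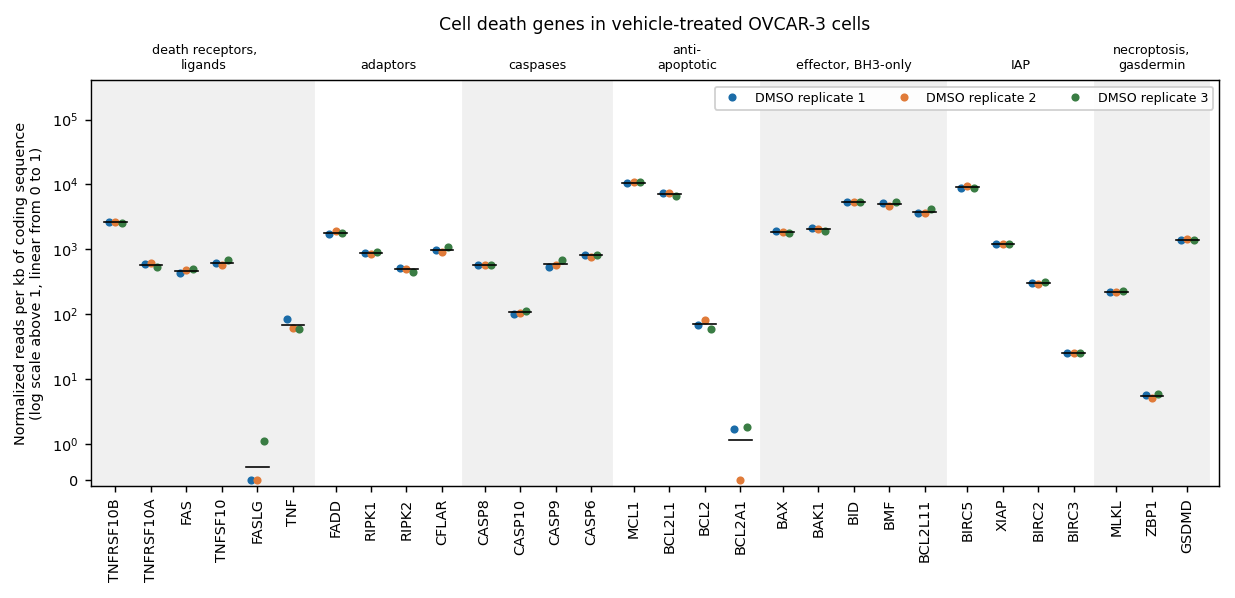
Normalized reads per kb of coding sequence (y axis, log scale above 1 and linear from 0 to 1) of death receptors, adaptors, caspases, BCL2 proteins, inhibitors of apoptosis (IAP) and necroptosis genes. Points are the 3 vehicle libraries and lines their means; MCL1 reaches 10732, BCL2 69.8 and BCL2A1 1.18.

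All 7 genes of 14-3-3 proteins, the targets of FC-A, had means over 1000 normalized reads. YWHAZ had 35652, 36587 and 35654 in replicates 1, 2 and 3. YWHAE had 15935, 15929 and 15867. SFN, the epithelial isoform, had 2105, 2042 and 2057, and for these 3 the libraries lay close together. Per kb of coding sequence YWHAZ led with 48931 ± 734, and YWHAB, YWHAE and YWHAQ followed with 20957 ± 252, 20798 ± 49.2 and 20577 ± 934, which did not differ beyond their spread on that scale. YWHAG had 13856 ± 636, YWHAH 8316 ± 553 and SFN 2779 ± 44.6. Per kb of transcript YWHAZ was again first with 12395 and SFN last with 1567, but YWHAB, at 5023, was below YWHAE and YWHAQ, at 7196 and 6837, and YWHAH, at 3363, was then above YWHAG, at 2738.

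Of 36 listed genes whose proteins are known or reported to bind 14-3-3 proteins, 34 were above the limit, with a median of 1847 normalized reads. GCN1L1, which encodes the translation regulator GCN1, had 12009, 11535 and 12194 in replicates 1, 2 and 3. The deacetylase HDAC7 had 10674, 10788 and 9912. The phosphatase CDC25B, which drives entry into mitosis, had 8191, 8394 and 8925. Of these 3, HDAC7 was lowest and CDC25B highest in replicate 3. The tumour suppressor TSC2 had 7971 ± 201 and the kinase BRAF 593 ± 17.4. The potassium channel gene KCNK9 and the kinase gene LRRK2 lay below the limit at 5.25 ± 3.34 and 2.22 ± 3.09.

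Among genes often altered in serous carcinoma, the kinase AKT2 had the most reads. It had 21287, 20731 and 20778 normalized reads in replicates 1, 2 and 3 and ranked 181, and per kb of coding sequence it had 14506 ± 214, against 4497 ± 212 for AKT1. CCNE1, the cyclin E1 gene, had 4005, 4017 and 3580.3, lowest in replicate 3, and CCND1 had 10532 ± 1303. The tumour suppressor CDKN2A had 12979.8 ± 485, RB1 1054 ± 24.9 and BRCA1 2037 ± 49.5, and MYC had 888 ± 10.9. In all, 32 of 33 listed genes of this group were above the limit.

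All 30 proliferation genes were above the limit and 29 averaged 1000 normalized reads or more. The proliferation marker MKI67 had 16674, 16632 and 18296 in replicates 1, 2 and 3 and was highest in replicate 3, the library in which most genes of this list were lowest. The topoisomerase TOP2A had 12804 ± 244 and the helicase subunit MCM7 13748 ± 743. The exception under 1000 was CDKN1A, the gene of the cyclin-dependent kinase inhibitor p21, with 881 ± 37.6. The integrated stress response, which lowers translation through eIF2 kinases, had 18 of 18 listed genes above the limit. Its factor ATF4 had 8047 ± 166, and its effectors DDIT3 and CHAC1 had 341 ± 9.79 and 161 ± 5.23.

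Of 40 listed chemokines and cytokines 29 were above the limit, with a median of 44.6 normalized reads. Midkine (MDK), a growth factor of tumours, had 11512, 11934 and 11943 in replicates 1, 2 and 3. The mucosal chemokine CCL28 had 4955, 4906 and 6129.9. The leukaemia inhibitory factor LIF had 2628, 2415 and 2031. Replicate 3 was the highest library for CCL28 and the lowest for LIF, with coefficients of variation of 13% and 12.8% against 2.09% for MDK. Among other chemokines CXCL1 had 1075 ± 139, CXCL16 708 ± 55.3, CX3CL1 149 ± 10.2 and CXCL10 13.4 ± 1.69, and CCL20, CXCL12, CCL5, CXCL11 and CXCL9 lay below the limit. IL6 had 30.1 ± 13.8, IL1B 3.09 ± 2.25, and CSF3 no read.

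Of 18 ligands of immune checkpoints and NK receptors 15 were above the limit, a share of 83.3% beside 81.3% of all protein-coding genes. CD47, which signals to macrophages, had 18052, 19122 and 18735 normalized reads in replicates 1, 2 and 3. VTCN1, which encodes B7-H4, had 5728, 5628 and 6765. CD276, which encodes B7-H3, had 5215, 5289.8 and 4939. CD274, which encodes PD-L1, had 35.4, 28.7 and 20.02, highest in replicate 1 and lowest in replicate 3. The tryptophan enzyme IDO1 had 25.4 ± 5.46. The T cell costimulators CD80 and CD86 were below the limit at 0.956 ± 0.957 and 0.621 ± 0.539.

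The spread between the 3 libraries was small for most genes. Over the 11881 genes whose mean reached 100 normalized reads, the median coefficient of variation was 3.94%, where counting error alone would give 2.45%. Leaving out 1 library leaves 2 values a gene, for which the counting value of 2.45% does not hold. The median was then 2.59% without replicate 3, 3.71% without replicate 1 and 3.36% without replicate 2. The ratio of the measured to the counting spread grew with level: the medians were 16.9% against 14.9% for means from 10 to 100, and 2.64% against 0.629% for means of at least 10000. The highest library exceeded the lowest by 1.25 times or more for 707 of the 11881 genes, and by 1.5 times or more for 53. Replicate 3 was the library farthest from the middle one for 51.8% of those 707 genes and for 44.01% of all 11881.

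The 10 genes with the widest range were TAGLN, NEFH, NBEA, ACTA2, BMPER, GLIPR1, ANKRD1, SMTNL2, ACTBL2 and KRT17. TAGLN, the smooth muscle protein transgelin, had 329, 284 and 159 normalized reads in replicates 1, 2 and 3. ACTA2, smooth muscle actin, had 238, 204 and 132. ANKRD1, an ankyrin repeat protein of stretched muscle, had 431, 442 and 257. In these 3 genes replicate 3 was the lowest. The actin-like ACTBL2 (129.7, 117 and 78.2) and the stress keratin KRT17 (2128, 1821 and 1283) were lowest in replicate 3 as well, as were NEFH, BMPER and GLIPR1, whereas NBEA (182, 132 and 251) and SMTNL2 (119, 78.5 and 133) were highest there. At a much higher level, the beta-actin gene ACTB had 115285, 113682 and 91003 and was also lowest in replicate 3.

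**Figure D5:**
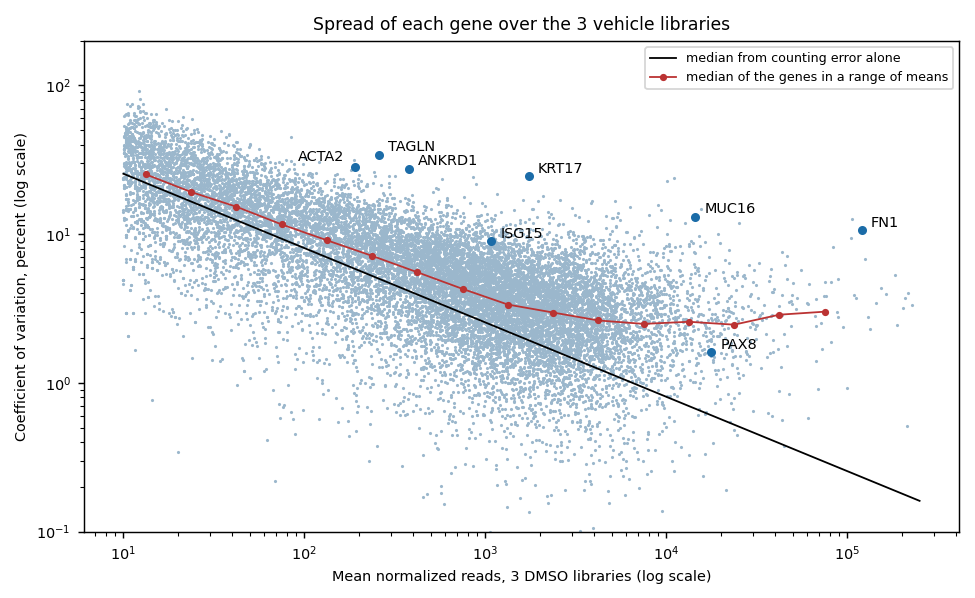
Coefficient of variation of each gene over the 3 vehicle libraries in percent (y axis, log scale) against its mean normalized reads (x axis, log scale), with the median in ranges of means and the median that counting error alone would give. The 2 lines part as the mean rises, and TAGLN, ACTA2, ANKRD1 and KRT17 lie well above them.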

How the data were processed

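RNA of 12 OVCAR-3 libraries was sequenced. Per the labels' protocols, RNA was extracted with an RNeasy kit and 100 ng of total RNA entered a TruSeq Stranded mRNA library. Per the submitters' processing notes, bcl2fastq 2.20, FastQC, STAR 2.7.3, the hg19 build and DESeq2 1.24.0 were used. The counting program, the annotation and the use of strand were not stated in the sources used here, so reads of overlapping and antisense genes may be mixed. The deposited values are a signal: normalized read counts, which the authors divided by library size factors. Dividing each column by its smallest step returned whole reads for 100% of values within 0.01, and these gave the depths, the chi-square statistics and the counting error.

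The levels described are those of the 3 DMSO columns, matched to samples by name. The other columns gave the range of depths and the note on genes without a read in the vehicle libraries. Where listed genes shared a symbol, the lists took the one with most reads over all 12 libraries. Genes were ranked by mean normalized reads, with a limit of 10. Coding and transcript lengths came from GENCODE 29 (GRCh38), matched by Ensembl ID or unique symbol, with 778 IDs unmatched. They were used for scaling only. Promoter sequences came from RefSeq, GRCh38.p14. Tables were made with Python 3.11.15, pandas 2.3.3 and numpy 2.4.6, and TMM library sizes with R 4.3.3 and edgeR 4.0.16. The calculation of the spread was tested on simulated data. No test between groups was run. The members and lists were chosen with earlier results of these data known. Named by rule were the 25 genes highest in reads and per kb of coding sequence, the 5 highest members of each list, all members of lists of up to 10, members below the limit, the 10 genes with the largest ratio of highest to lowest library, and a fixed set of markers. Other members were named for their role or pattern after their values were seen. Alternatives were other limits, other scalings, length of transcript in place of coding sequence (chosen after seeing the data), and leaving out each library. Some members are not reported here.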

Additional observations from a re-analysis of the deposited data

Results flagged for a closer look

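Of the 2248 genes with no read in any vehicle library, 19 averaged 10 normalized reads or more in the 3 IFNα libraries and 21 in the 3 libraries with both agents, whereas none reached that mean with FC-A alone. These libraries lie outside the description of the vehicle libraries, and no test was run. The gene with most reads among them was TNFSF13B, which encodes the B cell factor BAFF, with a mean of 229 ± 5.04 (SD, n = 3) in the IFNα libraries and 300.0 ± 39.1 in those with both agents. MMP13, a collagenase, followed with 68.7 ± 14.1 and 66.2 ± 5.91.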

How the results depend on the processing

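The number of genes above the limit was 21431 with a limit of 1 normalized read, 13009 with 50 and 15381 where every library had to reach 10, and ran from 15956 to 16036 without each library in turn. List members above the limit numbered 591, 499 and 537 under the same choices and 549 to 550 without each library, against 549 of 628. The share of the 100 genes with most reads was 27.8% of reads per kb of coding sequence and 19.5% without mitochondrial genes, and ran from 21.1% to 21.2% without each library. The median coefficient of variation ran from 2.59% to 3.71% without each library, lowest without replicate 3, and was 5.19% over genes with a mean of at least 10, 2.97% from 1000 and 3.94% with TMM scaling. Of 21 gene levels, none moved by more than the spread between libraries with scaling to library totals or by TMM. Without each library they moved by at most 6.69%, and with 3 libraries such a move cannot exceed their SD. Per kb of transcript, chosen after seeing the data, orders turned for FTH1, RPS16 and RPS2, EPHA2 and DDR1, RARG and RXRA, YWHAB and YWHAE, YWHAG and YWHAH, and CASP8 and CASP9. No paired analysis was possible because the values come from no test. One line, 1 time and 3 libraries bound every statement, levels under about 3 reads cannot be told from 0, and RNA levels do not give protein levels.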

Other observations

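Other gene families, chosen after their values were seen, are described for developmental and tumour genes. Their counts stand beside a share of 81.3% of all protein-coding genes above the limit. Of 11 listed HOXA genes 10 were above the limit, with 1606 ± 11.1 normalized reads for HOXA3 and 1159.6 ± 20.2 for HOXA5, while 6 of 9 HOXB, 6 of 8 HOXC and 3 of 9 HOXD genes were. These are the homeobox factors that set position along the body axis. Of 16 SOX genes 11 were above the limit, and the neural and stem cell factors SOX11 and SOX2 had 2989 ± 136 and 2316 ± 40.7. PRAME, a cancer-testis antigen, had 3470.0 ± 91.6, but none of 9 listed MAGEA, MAGEB and MAGEC genes, antigens of the same kind, was above the limit. Other MAGE genes were not counted. Of 17 S100 genes, which encode small calcium-binding proteins, 15 were above it, with 22322 ± 1429 for S100A6, 17294 ± 1210.0 for S100A10 and 15914 ± 687 for S100A2.

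Among RNAs that encode no protein, the nuclear RNAs NEAT1 and MALAT1 had 10872 ± 490.1 and 7216 ± 762 normalized reads and UCA1 had 3454 ± 149.8. No order between them is given, since they have no coding length.

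Neighbours of CCNE1 and AKT2 on chromosome 19, in the gene order of GENCODE 29, were also described. In the window of 11 genes centred on CCNE1, the median member stood at the 84.8th percentile of genes per kb of coding sequence, which was higher than in most windows of the genome (98.8th percentile of 16304 windows). POP4, a subunit of RNase P, had 7239 ± 123 normalized reads, URI1, a prefoldin-like protein, 8229 ± 84.2 and PDCD5 3889.6 ± 139. VSTM2B and TSHZ3 in the same window were near 0, at 1.88 ± 0.953 and 0.637 ± 0.551. The window centred on AKT2 had a median percentile of 67.1, the 83.7th percentile of windows, with 21382 ± 565 for PLD3 but 22.9 ± 4.96 for HIPK4. The highest windows outside the mitochondrial genome were 4 that overlap on the same chromosome, centred on MED29, ZFP36, PLEKHG2 and RPS16, with a median percentile of 96.8 each. That centred on MED29 held SUPT5H with 39088 ± 755 and PAF1 with 16948 ± 448, both factors of transcript elongation, and RPS16 with 130699.7 ± 3613. Copy number was not analysed here, and its part in these levels was not tested.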
